A study of Homo sapiens with 9 samples.

Results

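The genes described here are 10 members of the G1 cell cycle machinery, chosen by symbol: CCND1, CCND2, CCND3, CCNE1, CCNE2, CDK4, CDK6, CDKN1A, CDKN1B and RB1. All 10 were among the 18364 genes of the deposited table. RNA was sequenced from tumours grown from the established human glioblastoma line LN229, injected into the brains of nude mice, and every tumour was taken at the terminal stage. There were 6 tumours of LN229-4SA cells, with the genotype TAZ-4SA, and 3 tumours of LN229-EV cells, which carried the empty vector (EV). TAZ, the protein of WWTR1, is a transcriptional coactivator of the Hippo pathway, and the 4SA form has serines replaced by alanine so that the pathway's kinases restrain it less. The series asked how TAZ activation drives glioblastoma progression. All tumours came from 1 parental line, and a nude mouse lacks most T cells while it keeps other host cells, whose RNA can enter a tumour sample.

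D-type cyclins (CCND1, CCND2, CCND3) bind and activate CDK4 and CDK6, and these kinases phosphorylate the retinoblastoma protein RB1 in G1. Phosphorylated RB1 releases E2F transcription factors, which switch on E-type cyclins (CCNE1, CCNE2) and genes of DNA replication, and CDK2 with cyclin E then carries the cell into S phase. The inhibitors p21 (CDKN1A) and p27 (CDKN1B) block CDK2 complexes. Glioblastomas often alter this pathway through the CDK4, CDK6, RB1 or CDKN2A genes.

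Promoters are shown for CDK6, which was higher in TAZ-4SA tumours, CDK4, which fell short of the test, and CCND3, which was lower. The windows run from 250 bases before to 50 bases after a RefSeq transcript start (GRCh38.p14), all on the minus strand, printed 5′ to 3′. They lie at chr7:92836524-92836823 (CDK6), chr12:57752261-57752560 (CDK4) and chr6:41941759-41942058 (CCND3). Capitals mark the E-box CACGTG, which is its own reverse complement, and the TEAD core GGAATG or its reverse complement CATTCC. TEAD proteins are the DNA-binding partners of TAZ.
CDK6: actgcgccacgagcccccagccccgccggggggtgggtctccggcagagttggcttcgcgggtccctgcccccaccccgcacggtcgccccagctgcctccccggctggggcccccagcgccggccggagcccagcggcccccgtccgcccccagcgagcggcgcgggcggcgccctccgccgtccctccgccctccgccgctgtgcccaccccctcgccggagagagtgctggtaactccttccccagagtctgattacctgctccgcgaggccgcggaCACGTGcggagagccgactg
CDK4: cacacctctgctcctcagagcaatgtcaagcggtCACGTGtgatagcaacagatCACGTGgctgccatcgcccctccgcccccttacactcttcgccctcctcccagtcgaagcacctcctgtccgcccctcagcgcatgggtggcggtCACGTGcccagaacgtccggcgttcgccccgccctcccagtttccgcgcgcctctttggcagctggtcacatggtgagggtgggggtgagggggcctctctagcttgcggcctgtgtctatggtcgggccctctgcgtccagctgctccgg
CCND3: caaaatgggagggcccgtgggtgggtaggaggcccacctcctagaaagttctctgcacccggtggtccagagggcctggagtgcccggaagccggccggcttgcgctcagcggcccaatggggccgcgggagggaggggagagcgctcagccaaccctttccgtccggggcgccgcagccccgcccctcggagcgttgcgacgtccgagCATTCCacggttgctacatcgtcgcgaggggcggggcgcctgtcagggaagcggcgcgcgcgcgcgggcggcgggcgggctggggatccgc
The CDK6 window held 1 E-box and no TEAD core. The CDK4 window held 3 E-boxes and the CCND3 window 1 TEAD core. Among 35116 windows of the same length, 14% held a TEAD core and 7.26% an E-box. The CDK6 and CDK4 windows are at the 5′ end of the annotated gene. CDK6 has 1 other window in the table and CCND3 has 2 others, none of them with either motif, and the CCND3 window shown was the one that held a match. RefSeq windows were matched for 7 of the 10 members. These matches describe letters in the windows and say nothing of binding.

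Levels are given as CPM, the reads of a gene scaled to a common library size, recovered from the deposited log2 values, and fold changes are log2 differences of the deposited values, TAZ-4SA over EV, with a standard error (SE). A gene was called where limma's moderated test gave a Benjamini-Hochberg adjusted p under 0.05 over 15578 genes. By that rule 3 members were higher in TAZ-4SA tumours (CCND1, CDK6 and RB1), 2 were lower (CCND2 and CCND3) and 5 were not called. Over all genes tested, 9.02% were called higher and 13.3% lower, so 3 of 10 and 2 of 10 members stand against those shares. The median log2 fold change was -0.41 over the 10 members and -0.85 over all genes tested, so the typical gene was lower in TAZ-4SA tumours on this scale. Under quantile normalization the median of all genes was -0.15 and 1920 genes were called higher and 1624 lower, against 1405 and 2079 on the deposited scale. With that scaling, too, CCND1, CDK6 and RB1 were called higher and CCND2 and CCND3 lower. CCNE1 was then called lower as well (limma adjusted p = 0.03469).

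The samples themselves differed in depth and completeness. TAZ-4SA tumours had 3144861 to 31468135 reads over the genes of the table, and EV tumours 17314672 to 21576264. TAZ-4SA tumours listed 2990 to 7365 genes at 0 reads, against 505 to 622 in EV tumours. Among genes averaging 10 to 50 CPM, the median SD of the log2 level was 1.45 between TAZ-4SA tumours and 0.27 between EV tumours. WWTR1, the gene of the construct, averaged 331 ± 74.6 CPM in TAZ-4SA tumours and 120 ± 3.17 CPM in EV tumours (SD, n = 6 and 3), and every TAZ-4SA tumour was above every EV tumour. The log2 difference was 1.44 (two-sided exact permutation p = 0.02381, the smallest that 84 arrangements allow). Summed neuron markers reached 84.5 to 1291 CPM in TAZ-4SA tumours, highest in tumours 5 and 6, against 29.7 to 133 CPM in EV tumours. Microglia and macrophage markers summed to 54.7 to 142 CPM in TAZ-4SA tumours, against 16.1 to 25.6 CPM in EV tumours, mostly CD68. PTPRC, CSF1R, ITGAM and TYROBP also averaged more in TAZ-4SA tumours. P2RY12 had 0 reads in every TAZ-4SA tumour and averaged only 0.13 CPM in EV tumours. Oligodendrocyte markers summed to 29.9 to 381 CPM in TAZ-4SA tumours, against 543 to 658 CPM in EV tumours. CNP, the largest part in EV tumours, averaged 29.5 CPM in TAZ-4SA tumours and 359 CPM in EV tumours. MOG and MOBP had 0 reads in every TAZ-4SA tumour and averaged only 0.11 and 0.68 CPM in EV tumours. Astrocyte markers summed to 61.6 to 210 CPM in TAZ-4SA tumours, against 56.8 to 69.2 CPM in EV tumours, and endothelial markers to 0 to 13.2 CPM in TAZ-4SA tumours, against 9.48 to 14.6 CPM in EV tumours. The part of these cell types in the results below was not tested. In bulk RNA, fewer cells of a type and less RNA per cell cannot be told apart.

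**Figure D1:**
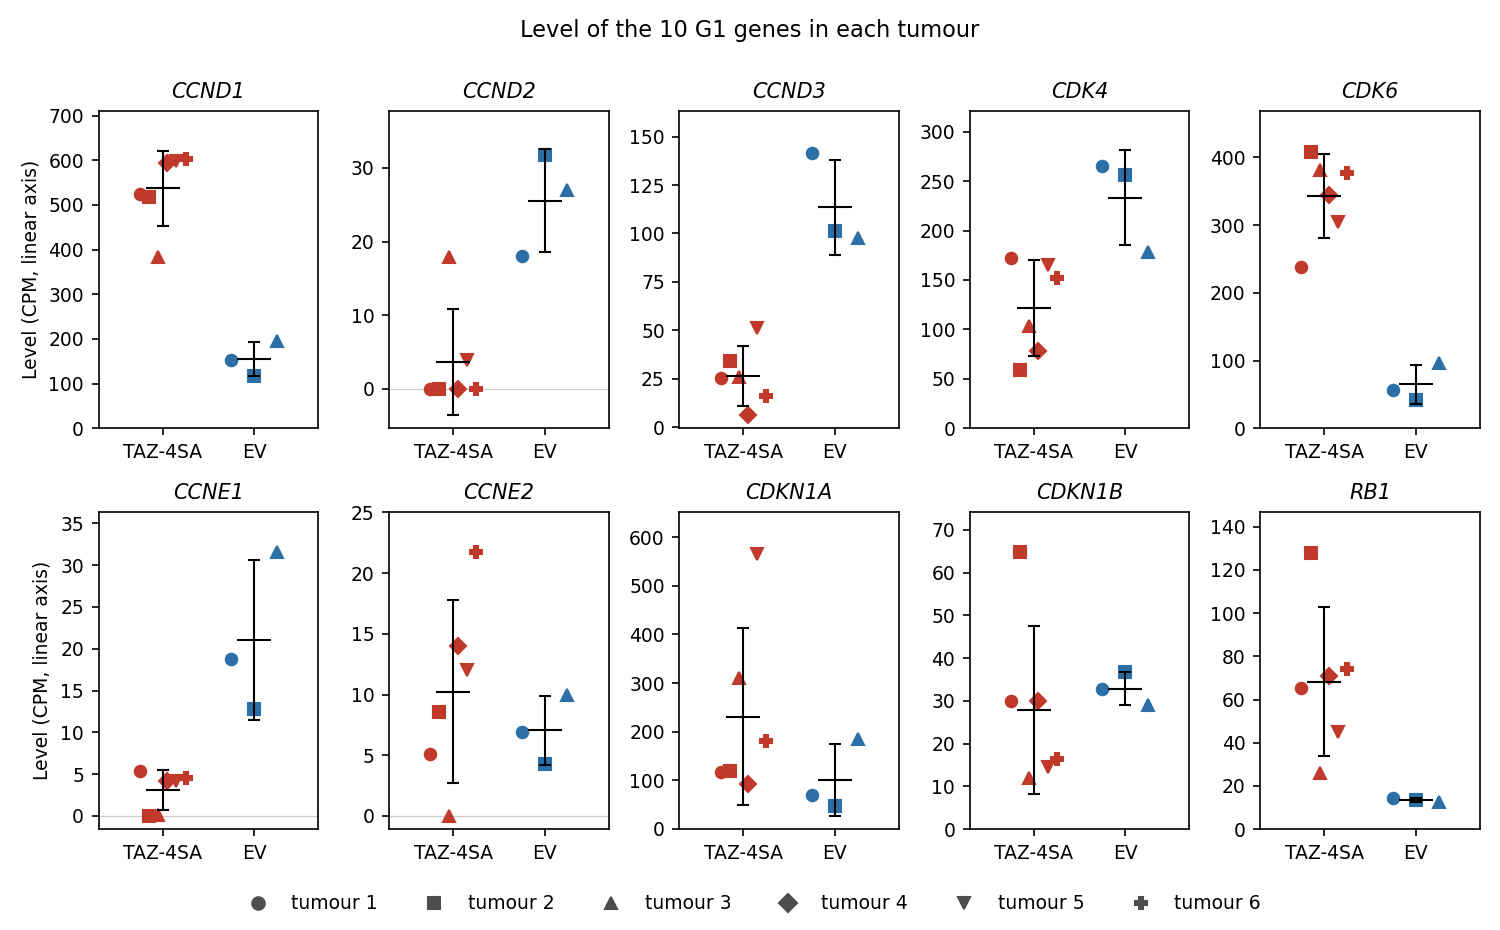
CPM of each G1 gene (vertical axis, linear, separate scale per gene) in 6 TAZ-4SA tumours (red, left) and 3 EV tumours (blue, right), with each tumour as a symbol and the black bars giving mean ± SD. CCND1, CDK6 and RB1 are higher in every TAZ-4SA tumour than in any EV tumour, and CCND2, CCND3, CCNE1 and CDK4 lower in every one.

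Cyclin D1 was the D-type cyclin that rose. CCND1 (Entrez 595, chromosome 11, 69641156 to 69654474, GRCh38) ran from 384 CPM in TAZ-4SA tumour 3 to 603 CPM in tumour 6, with a median of 559.6 CPM, against 153, 117 and 195 CPM in EV tumours 1 to 3. The groups did not overlap, and the lowest TAZ-4SA tumour was still well above the highest EV tumour. Means were 537 ± 84.0 CPM in TAZ-4SA tumours and 155 ± 38.9 CPM in EV tumours (SD, n = 6 and 3). The log2 fold change was 1.81 ± 0.25 (SE; limma adjusted p = 0.0004725), and the gene was called in all 22 alternative settings. Part of its exon sequence overlaps LTO1 on the opposite strand, and these libraries do not keep the strand.

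Cyclin D3 and cyclin D2 went the other way. CCND3 (Entrez 896, chromosome 6, 41934933 to 42050035) ran from 6.25 to 51.2 CPM in TAZ-4SA tumours, with a median of 25.8 CPM, against 142, 101 and 97.7 CPM in EV tumours. No TAZ-4SA tumour reached the lowest EV tumour, though tumours 4 and 5 differed widely from each other. The mean was 26.6 ± 15.4 CPM in TAZ-4SA tumours and 114 ± 24.5 CPM in EV tumours (SD, n = 6 and 3), and the log2 fold change was -2.33 ± 0.57 (SE; limma adjusted p = 0.01273). Without EV tumour 1 the limma adjusted p was 0.07639, and without EV tumour 2 it was 0.05048.

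CCND2 (Entrez 894, chromosome 12, 4273762 to 4305353) had 0 reads in TAZ-4SA tumours 1, 2, 4 and 6, 14 reads (3.92 CPM) in tumour 5 and 291 reads (17.9 CPM) in tumour 3, against 18.0, 31.7 and 26.9 CPM in EV tumours 1 to 3. The highest TAZ-4SA tumour lay just under the lowest EV tumour. Means were 3.63 ± 7.16 CPM in TAZ-4SA tumours and 25.6 ± 6.98 CPM in EV tumours (SD, n = 6 and 3), a ratio of 0.142. The fitted log2 fold change was -5.47 ± 1.75 (SE; limma adjusted p = 0.04114). It is a larger change than that ratio because it averages log2 levels, in which the tumours at 0 weigh more. Its size depended on the prior, at -5.83 with a pseudocount of 0.1 CPM and -2.94 with 2 CPM. Of 2594 genes averaging 20 to 40 CPM in EV tumours, 4.39% had 0 reads in at least 4 TAZ-4SA tumours, as CCND2 did. The call was lost in 12 of the 22 alternatives, among them leaving out any of the 3 EV tumours (limma adjusted p = 0.1146, 0.1412 and 0.1239), any 1 of TAZ-4SA tumours 1, 2, 4 and 6 (0.06653 to 0.0813), or TAZ-4SA tumours 5 and 6 together (0.0694). Without TAZ-4SA tumour 3 the adjusted p was 0.007387 with limma.

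To compare the paralogs with one another, CPM was divided by the length of the longest principal transcript. The 3 D-type cyclins summed to 138 ± 19.7 CPM per kb in TAZ-4SA tumours and 94.4 ± 13.0 CPM per kb in EV tumours (SD, n = 6 and 3), and the groups overlapped, since TAZ-4SA tumour 3 had 104 and EV tumour 1 had 106 CPM per kb. CCND1 made up 90.3 ± 5.27% of that sum in TAZ-4SA tumours (range 84.7 to 97.9%) and 38.1 ± 7.74% in EV tumours (33.5 to 47.0%). CCND3 made up 9.25 ± 4.79% in TAZ-4SA tumours and 57.6 ± 7.95% in EV tumours. CCND2 contributed 0.502 ± 1.06% in TAZ-4SA tumours and 4.34 ± 1.74% in EV tumours. The most abundant D-type cyclin transcript per kb was thus CCND1 in each TAZ-4SA tumour and CCND3 in each EV tumour. That order in EV tumours rests on transcript length: without it CCND1 made up 52.3% and CCND3 38.8% of the sum in EV tumours. These shares are descriptions and were not tested.

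**Figure D2:**
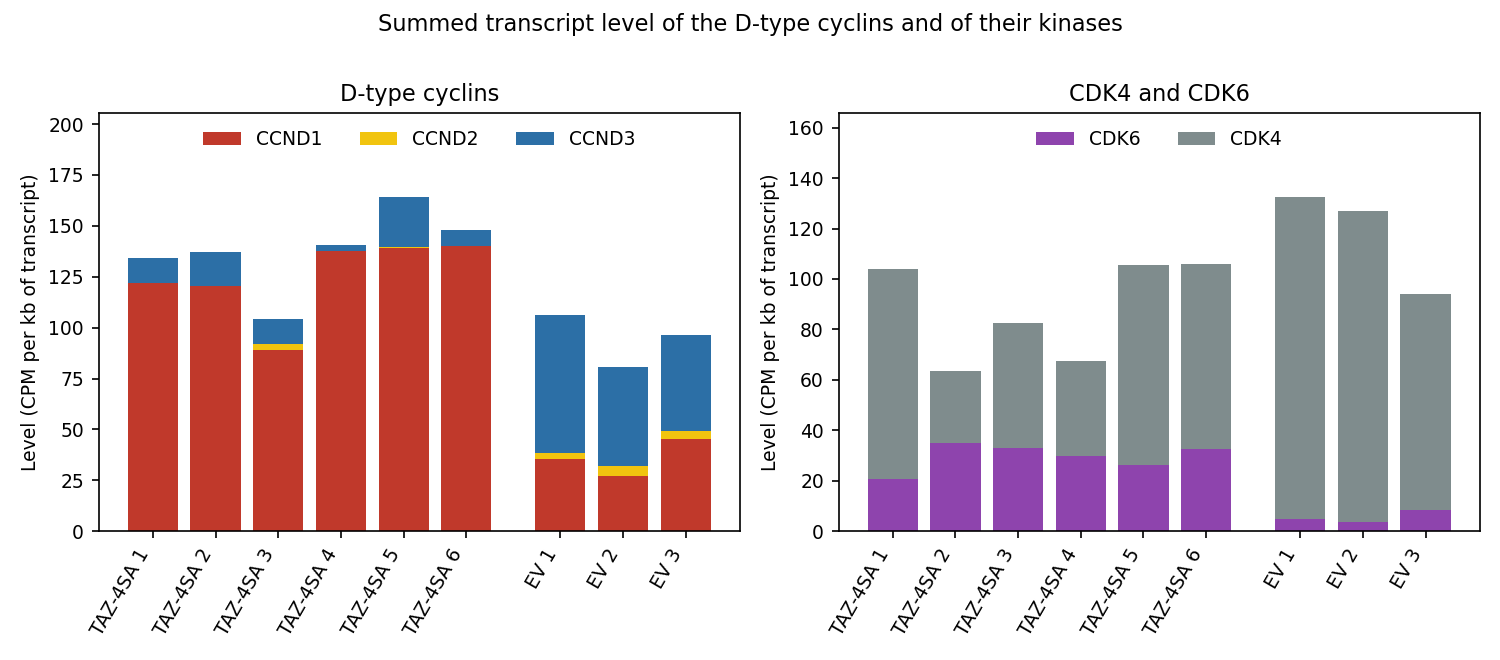
CPM per kb of transcript (vertical axes, from 0) in each of 6 TAZ-4SA and 3 EV tumours, stacked by gene for the D-type cyclins (left) and for CDK6 and CDK4 (right). CCND1 fills 84.7 to 97.9% of the D-type bars in TAZ-4SA tumours and 33.5 to 47.0% in EV tumours, and CDK6 fills 19.8 to 55.4% of the kinase bars in TAZ-4SA tumours and 2.79 to 8.83% in EV tumours.

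Of the 2 partner kinases, CDK6 rose and CDK4 did not pass the test. CDK6 (Entrez 1021, chromosome 7, 92604921 to 92836573) ran from 239 CPM in TAZ-4SA tumour 1 to 408 CPM in tumour 2, with a median of 361 CPM, against 56.4, 41.2 and 96.5 CPM in EV tumours. Every TAZ-4SA tumour was above every EV tumour, and the tumours of the TAZ-4SA group resembled each other (SD of the log2 level 0.28). The mean was 343 ± 62.0 CPM in TAZ-4SA tumours and 64.7 ± 28.5 CPM in EV tumours (SD, n = 6 and 3), with a log2 fold change of 2.47 ± 0.31 (SE; limma adjusted p = 0.0002097), and the gene was called in all 22 alternatives.

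CDK4 (Entrez 1019, chromosome 12, 57747727 to 57752310), which shares the D-type cyclins with CDK6, ran from 58.7 to 173 CPM in TAZ-4SA tumours, with a median of 128 CPM, against 265, 256 and 178 CPM in EV tumours. The groups did not overlap, but TAZ-4SA tumour 1 and EV tumour 3 nearly met. The log2 fold change was -1.02 ± 0.38 (SE; 95% interval -1.85 to -0.20; limma adjusted p = 0.07055), which missed the threshold. It was -0.17 relative to the median of all genes tested, which was -0.85. Among genes averaging 10 CPM or more, as CDK4 did, the median was -0.41. CDK4 was called lower under median-of-ratios scaling, with array weights and with limma-voom (adjusted p = 0.04359 under the first). Part of its exon sequence overlaps TSPAN31 on the opposite strand, so reads within the shared stretch cannot be told apart. Per kb, CDK6 made up 35.8 ± 13.2% of the summed CDK4 and CDK6 level in TAZ-4SA tumours and 5.10 ± 3.26% in EV tumours (SD, n = 6 and 3). The range in TAZ-4SA tumours was 19.8 to 55.4%, and CDK6 was above CDK4 in tumour 2 alone. Without division by length the CDK6 share was 73.6% in TAZ-4SA tumours and 22.2% in EV tumours.

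RB1, the substrate of these kinases and a brake on E2F, was also higher. RB1 (Entrez 5925, chromosome 13, 48303751 to 48481890) ran from 26.0 CPM in TAZ-4SA tumour 3 to 128 CPM in tumour 2, with a median of 68.0 CPM, against 14.3, 13.7 and 12.5 CPM in EV tumours. The EV tumours lay close together and all 6 TAZ-4SA tumours were above them. The mean was 68.2 ± 34.5 CPM in TAZ-4SA tumours and 13.5 ± 0.909 CPM in EV tumours (SD, n = 6 and 3), and the log2 fold change was 2.16 ± 0.48 (SE; limma adjusted p = 0.007011). With only TAZ-4SA tumours 1 to 3 against the 3 EV tumours the limma adjusted p was 0.05531. With TAZ-4SA tumours 5 and 6 left out, CCND1, CDK6 and RB1 were each called higher, with log2 fold changes of 1.72, 2.47 and 2.20. The 4 TAZ-4SA tumours kept there still had summed neuron markers of 84.5 to 199.6 CPM, against 29.7 to 133 CPM in EV tumours, and the part of neurons in these changes was not tested.

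The E-type cyclins, which activate CDK2, were uneven across TAZ-4SA tumours, and neither passed the test. CCNE1 (Entrez 898, chromosome 19, 29811991 to 29824312) had 0 reads in TAZ-4SA tumour 2, 1 read in tumour 3 and 4.17 to 5.39 CPM in the other 4, against 18.8, 12.8 and 31.5 CPM in EV tumours. No TAZ-4SA tumour reached any EV tumour. The log2 fold change was -3.66 ± 1.54 (SE; 95% interval -7.01 to -0.31; limma adjusted p = 0.1068), which did not pass the threshold. Leaving out TAZ-4SA tumours 2, 3 and 4, those with the longest lists of undetected genes, it was -2.03 and called lower (limma adjusted p = 0.02728), as it was in 4 other alternatives.

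CCNE2 (Entrez 9134, chromosome 8, 94880224 to 94896693) ran from 0 in TAZ-4SA tumour 3 to 21.7 CPM in tumour 6, with a median of 10.3 CPM, against 6.89, 4.30 and 9.99 CPM in EV tumours. The groups overlapped. The log2 fold change was -0.33 ± 1.55 (SE; 95% interval -3.71 to 3.04; limma adjusted p = 0.8913), an interval wide enough to hold a large change either way, and it was 0.71 without TAZ-4SA tumour 3. Exons of CCNE2 overlap INTS8 on the opposite strand. Per kb, CCNE1 made up 43.0 ± 34.5% of the 2 E-type cyclins in TAZ-4SA tumours, from 0 to 100%, and 82.8 ± 1.05% in EV tumours (SD, n = 6 and 3).

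Neither inhibitor of the p21 and p27 pair passed the test. CDKN1A (Entrez 1026, chromosome 6, 36676463 to 36687332) ran from 91.9 to 566 CPM in TAZ-4SA tumours, with a median of 150.1 CPM, against 69.2, 46.9 and 184 CPM in EV tumours. TAZ-4SA tumours 3 and 5 were above the highest EV tumour and the other 4 lay within the EV range. The log2 fold change was 1.14 ± 0.58 (SE; 95% interval -0.13 to 2.40; limma adjusted p = 0.177). CDKN1B (Entrez 1027, chromosome 12, 12717368 to 12722369) ran from 11.9 to 64.7 CPM in TAZ-4SA tumours, with a median of 23.2 CPM, against 32.8, 36.7 and 28.9 CPM in EV tumours. Its highest value, in TAZ-4SA tumour 2, was above every EV tumour, and its lowest values, in tumours 3, 5 and 6, were below them all. The log2 fold change was -0.48 ± 0.57 (SE; 95% interval -1.71 to 0.76; limma adjusted p = 0.5611). CDKN1A made up 86.0 ± 11.8% of the pair per kb in TAZ-4SA tumours and 73.1 ± 14.2% in EV tumours (SD, n = 6 and 3).

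**Figure D3:**
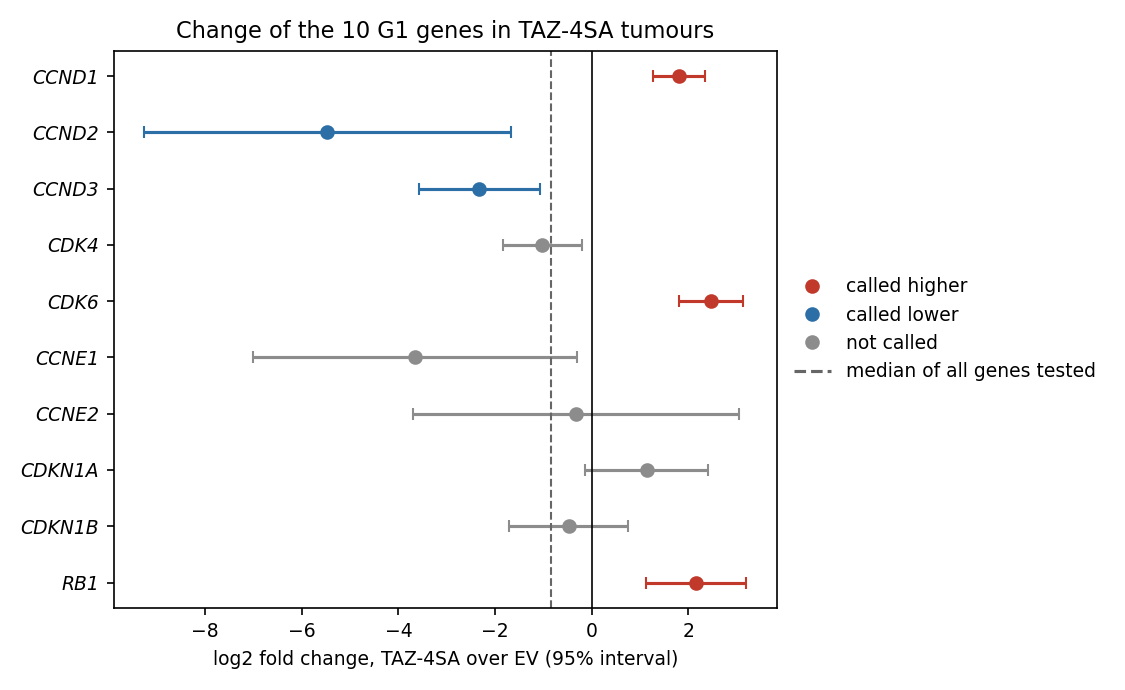
Log2 fold change (horizontal axis, TAZ-4SA over EV) of the 10 G1 genes with limma's 95% interval, coloured by call, with the dashed line at the median of all genes tested (-0.85). CDK6, RB1 and CCND1 lie to the right of 0 with their whole intervals, and the intervals of CCND2, CCNE1 and CCNE2, which had TAZ-4SA tumours at 0 reads, are the widest.

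Across the family, the groups did not overlap for 7 of 10 members, 3 higher and 4 lower in TAZ-4SA tumours, beside 32% of all genes tested (10.8% higher and 21.3% lower). In TAZ-4SA tumours the order of mean levels per kb was CCND1 (125 CPM per kb), CDKN1A (102), CDK4 (58.6), CDK6 (29.5), RB1 (14.2), CCND3 (12.8), CDKN1B (10.5), CCNE2 (3.07), CCNE1 (1.5) and CCND2 (0.561). The tumour ranges of all neighbours in that order overlapped. In EV tumours the order was CDK4 (112 CPM per kb), CCND3 (54.4), CDKN1A (44.2), CCND1 (36.0), CDKN1B (12.4), CCNE1 (10.3), CDK6 (5.57), CCND2 (3.94), RB1 (2.82) and CCNE2 (2.12). There CDK4 stood clear of CCND3 and CCND1 stood clear of CDKN1B, and the other neighbours overlapped.

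Among all 11784 genes of at least 5 CPM on average, those closest to CDK6 in their centred log2 profile over the 9 tumours were TLK1, KCTD12 and FNDC3A, at root-mean-square distances of 0.231, 0.273 and 0.286. TLK1 averaged 77.8 CPM in TAZ-4SA tumours and 15.8 CPM in EV tumours. CDV3, FAM172A and DDX3X were nearest to CCND1, at 0.149, 0.163 and 0.175, and DDX3X averaged 402 CPM in TAZ-4SA tumours and 109 CPM in EV tumours. For RB1 the nearest were SLC30A7, MAGEA10 and SUCO, at 0.184, 0.261 and 0.261. This distance is a description of likeness over these tumours.

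Of 28 partners of the pathway, 24 were in the table and 23 were tested, of which 2 were called higher, 1 lower and 20 not called, with a median log2 fold change of -0.46. Over all genes tested, 9.02% were called higher, 13.3% lower and 22.4% in either direction. E2F7, an E2F family repressor, averaged 54.1 ± 23.7 CPM in TAZ-4SA tumours and 6.70 ± 4.98 CPM in EV tumours (log2 fold change 3.02, limma adjusted p = 0.008059), and it overlapped EV only in TAZ-4SA tumour 3. CCNH, the cyclin of the CDK-activating kinase that phosphorylates CDK4, CDK6 and CDK2, averaged 119 ± 79.9 CPM in TAZ-4SA tumours and 17.9 ± 1.53 CPM in EV tumours (2.35, limma adjusted p = 0.01913), every TAZ-4SA tumour being above EV. E2F1, an activating E2F that RB1 holds back, averaged 51.8 ± 40.2 CPM in TAZ-4SA tumours and 175 ± 41.9 CPM in EV tumours (-2.07, limma adjusted p = 0.01879), every TAZ-4SA tumour being below EV. The calls of CCNH and E2F1 were lost when any 1 EV tumour was left out (limma adjusted p = 0.05268 to 0.08502), and E2F7 was not called with limma-voom (adjusted p = 0.1343). CDK2, the kinase of cyclin E, averaged 37.6 ± 16.1 CPM in TAZ-4SA tumours and 77.2 ± 9.75 CPM in EV tumours without passing the test (limma adjusted p = 0.0624), although its groups did not overlap. CDK2 is outside the naming rule and was chosen after its values were seen. CDKN1C, CDKN2A, CDKN2B and CDK7 were not analysed here, and CDKN2C was too low to test.

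Of 20 proliferation genes, 4 were called higher, 3 lower and 13 not called, with a median log2 fold change of -0.12. Among all genes tested, 9.02% were called higher and 13.3% lower. CCNA2, the cyclin of S and G2 phase, averaged 79.2 ± 22.2 CPM in TAZ-4SA tumours and 17.5 ± 1.04 CPM in EV tumours (log2 fold change 2.12, limma adjusted p = 0.001676). TOP2A, the topoisomerase of dividing cells, averaged 240 ± 84.3 CPM in TAZ-4SA tumours and 70.8 ± 15.0 CPM in EV tumours (1.71, limma adjusted p = 0.003715). MCM7 and MCM3, subunits of the replicative helicase, fell: MCM7 averaged 192 ± 68.5 CPM in TAZ-4SA tumours and 729 ± 135 CPM in EV tumours (-1.99, limma adjusted p = 0.001518), and MCM3 averaged 167 ± 25.4 CPM in TAZ-4SA tumours and 395 ± 57.7 CPM in EV tumours (-1.25, limma adjusted p = 0.003454). In each of these 4 genes the groups did not overlap, as in 32% of all genes tested. Without EV tumour 1 or EV tumour 2, 2 genes of this list were called higher. The other calls were RRM2 (1.05) and MKI67 (0.91), higher, and MCM5 (-1.70), lower, named after their values were seen. Of the 5 MCM subunits on the list, MCM2 (-0.99, limma adjusted p = 0.05997) and MCM6 (-0.04, 0.9259) were not called, and they too were named after their values were seen.

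p21 is a target of the p53 protein, so 20 other p53 targets and regulators were read beside CDKN1A. Of these, 4 were called higher, 0 lower and 16 not called, beside 9.02% higher and 13.3% lower among all genes tested. The median log2 fold change of the 20 was -0.16, or 0.12 under quantile normalization. With limma 1 gene was lower at an unadjusted p under 0.05, and 2 were called lower with array weights and 1 with limma-voom. MDM2, the ubiquitin ligase that degrades p53, averaged 422 ± 143 CPM in TAZ-4SA tumours and 51.0 ± 37.5 CPM in EV tumours (log2 fold change 3.21, limma adjusted p = 0.0003293). CCNG1 averaged 309.9 ± 169 CPM in TAZ-4SA tumours and 28.7 ± 8.68 CPM in EV tumours (3.27, limma adjusted p = 0.000564). For both genes every TAZ-4SA tumour was above every EV tumour. ZMAT3, an RNA-binding protein, averaged 180 ± 77.4 CPM in TAZ-4SA tumours and 40.3 ± 19.1 CPM in EV tumours (2.08, limma adjusted p = 0.01075). SESN2, a stress-induced regulator of mTORC1, averaged 105 ± 44.9 CPM in TAZ-4SA tumours and 33.7 ± 16.7 CPM in EV tumours (1.60, limma adjusted p = 0.02781). The groups of ZMAT3 and SESN2 overlapped, and both calls were lost without TAZ-4SA tumours 5 and 6, with log2 fold changes of 1.80 for ZMAT3 and 1.43 for SESN2 (limma adjusted p = 0.06105 and 0.08611). The SESN2 call was also lost without TAZ-4SA tumour 1 (limma adjusted p = 0.06056). Without EV tumour 1 or EV tumour 2 the list had 2 genes called higher.

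**Figure D4:**
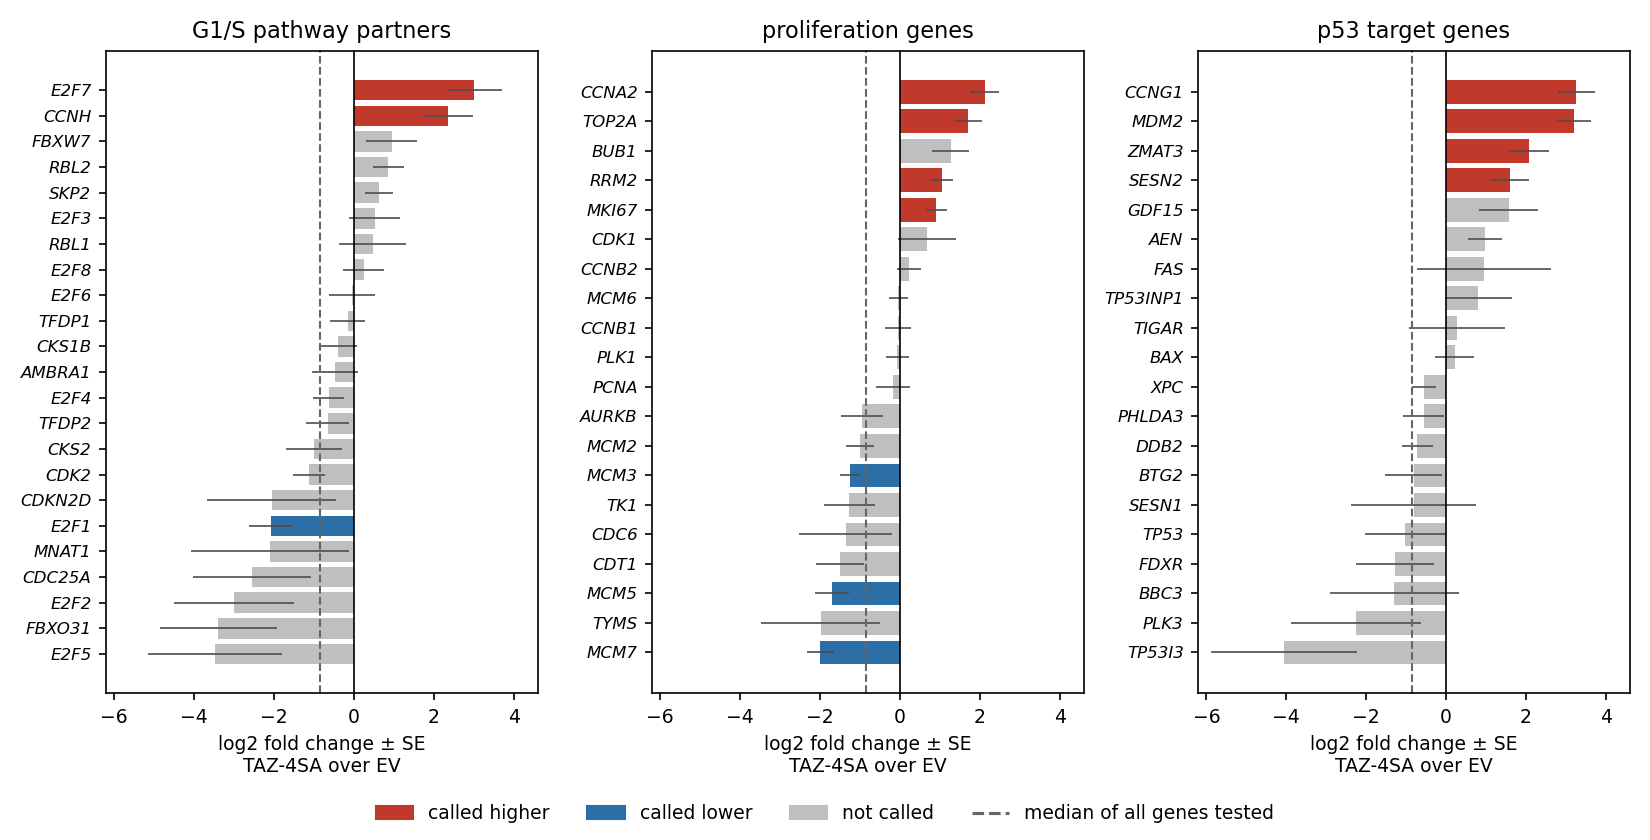
Log2 fold change (horizontal axis, TAZ-4SA over EV, bars from 0, error bars SE) of the tested genes of 3 lists, coloured by call, with the dashed line at the median of all genes tested (-0.85). Each list holds genes on both sides of 0, and 3 of 23 partners, 7 of 20 proliferation genes and 4 of 20 p53 targets were called, beside 22.4% of all genes tested.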

How the data were processed

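Total RNA was extracted with TRIzol and libraries were made with the SMART-Seq mRNA HT and Nextera XT kits, per the labels' protocols. HISAT2, edgeR and GRCh38 appear in the submitters' processing notes, with neither versions nor roles. How reads were counted, with which annotation, and whether mouse reads were set aside first is not given in the sources used here. Values were deposited by the authors as log2, read here as log2 CPM with a prior of 0.145 CPM because the lowest value, -2.786, was the same in every tumour. After the prior was removed, 100% of values under 5000 reads were whole read numbers within 0.1 read, which gave reads and CPM for each tumour. Floors of reads cover counting error only, whereas limma's 95% intervals come from the spread between tumours.

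The deposited values were tested with limma 3.58.1 under R 4.3.3 (two-sided, trend and robust options of the empirical Bayes step) for the 15578 genes that averaged 1 CPM or more, adjusted by Benjamini-Hochberg over all of them. Fold changes include the prior, so they understate the change of genes low in a whole group. Transcript lengths came from a GENCODE annotation of GRCh38, taking the longest principal transcript of each gene, and gene coordinates came from RefSeq. The labels do not tie tumours to animals, so each p-value covers only the spread among these samples, which may be technical, and no libraries within a group agreed within sampling noise (lowest chi-square per degree of freedom 18.6). Named genes were the 10 members, WWTR1, up to 4 called genes of each list by p, and the 3 nearest profiles of the 3 members with the smallest p. The members and lists were chosen with earlier results of these data known. Alternatives changed the pseudocount, scaling, filter, weights, test or tumours.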

Additional observations from a re-analysis of the deposited data

Results flagged for a closer look

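In TAZ-4SA tumour 3, 3 of the 22 genes examined stood apart from the other 5 TAZ-4SA tumours by Dixon's test, in which chance alone flags about 5 of every 100 groups. The ratios of gap to range were taken on log2 levels, where 0 reads sits at the prior, and not on the CPM printed beside them. CCND1 had 384 CPM in TAZ-4SA tumour 3, against 519 to 603 CPM in the remaining 5 (ratio of gap to range 0.6675). CCNE2 had 0 reads there, against 5.13 to 21.7 CPM (0.7166). E2F7 had 12.1 CPM there, against 43.8 to 79.0 CPM (0.6844). The critical ratio for 6 samples is 0.625. The same tumour had 1 read of CCNE1 and the highest CCND2 level of its group, and 0 reads were found in it for 41.5% of genes averaging 5 to 10 CPM across the remaining TAZ-4SA tumours. The same share, each tumour against the rest of its group, was 49.5% in TAZ-4SA tumour 2, 39.9% in tumour 4 and 5.35 to 24.7% in tumours 1, 5 and 6. Without it the log2 fold changes were 1.90 for CCND1 and 0.71 for CCNE2.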

How the results depend on the processing

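CCND1 and CDK6 were called higher in all 22 alternatives, and RB1 in 20 of 22. Over single genes, 425 values kept their direction and side of the threshold, 44 dropped out of the call, 8 entered it and 5 changed sign. The 5 were all CCNE2: 0.14 with a pseudocount of 2 CPM, 1.23 with quantile normalization, 0.20 with array weights, 0.72 without TAZ-4SA tumours 2, 3 and 4, and 0.71 without TAZ-4SA tumour 3 (range with 1 tumour left out -0.74 to 0.71). The cause was not tested. Genes called higher numbered 2531 with array weights and 562 with replicates 1 to 3 and the replicate block. Genes called lower numbered 3384 with no filter and 967 with a filter at 10 CPM, which change the genes tested, 5630 with array weights and 3646 with limma-voom. Leaving out 1 tumour gave 799 to 1685 higher and 852 to 2688 lower, with 827 higher and 872 lower without EV tumour 1, 799 and 852 without EV tumour 2, and 990 lower without EV tumour 3. Members called lower numbered 1 with the 10 CPM filter, without the robust step, without TAZ-4SA tumours 5 and 6, and with replicates 1 to 3 with or without the block, and 4 with array weights and limma-voom. Leaving out 1 tumour gave 0 to 2 lower and 3 to 3 higher.

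For the pathway partners, 4 were called higher with array weights, 1 with limma-voom and 0 with replicates 1 to 3, with or without the block. Lower calls were 2 with a pseudocount of 2 CPM, median-of-ratios scaling, no filter, without tumours 2, 3 and 4, without 5 and 6 and with replicates 1 to 3 unblocked, 7 with array weights and 3 with limma-voom. Leaving out 1 tumour gave 1 to 3 higher and 0 to 2 lower. For proliferation genes the replicate block gave 2 higher and 1 lower, array weights 7 lower and limma-voom 6 lower, and leaving out 1 tumour gave 2 to 5 higher and 2 to 4 lower. For p53 targets 2 were higher without tumours 5 and 6 and 1 with the block, 2 lower with array weights and 1 with limma-voom, and leaving out 1 tumour gave 2 to 5 higher and 0 lower.

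Tumours of the same replicate number showed no sign of pairing (correlations 0.03, 0.004 and -0.05), which so few tumours cannot exclude. RB1 with the replicate block had a limma adjusted p of 0.09391. The WWTR1 difference was 1.45 without TAZ-4SA tumours 2, 3 and 4 (exact permutation p = 0.1), 1.43 without 5 and 6 (0.05714), 1.41 with replicates 1 to 3 (0.1) and 1.34 to 1.55 with 1 tumour left out. Without an EV tumour its exact permutation p was 0.07143, and each of these p-values is the smallest its design allows. In EV tumours CCND1 was 52.3% of D-type cyclins without transcript length and 46.3% with median length, CCND2 8.96% without length, and CCND3 38.8% and 48.2%, both chosen after seeing the data. CDK6 was 73.6% in TAZ-4SA tumours and 22.2% in EV tumours without length. CCNE1 in EV tumours was 74.6% without and 78.6% with median length. CDKN1A with median length was 71.9% in TAZ-4SA tumours and 51.9% in EV tumours. The planned edgeR test was not run, because the deposited unit is log2, and limma-voom on recovered reads stood in its place. At 3 reads the detection floor was 0.108 to 0.917 CPM in TAZ-4SA tumours and 0.141 to 0.193 CPM in EV tumours.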
